A study of Mus musculus with 8 samples.

Results

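The genes described here are the 2 corticosteroid receptors, Nr3c1 (the glucocorticoid receptor) and Nr3c2 (the mineralocorticoid receptor), and 7 genes known to respond to glucocorticoids, Fkbp5, Tsc22d3, Sgk1, Zbtb16, Klf9, Ddit4 and Pdk4. They were picked by gene name in the deposited expression table, 9 genes of the 40800 it lists, and the choice was made with their difference between genotypes already known. That difference is therefore given for these 9 genes as a description, without a p-value. Where a gene of the 9 is said to be past the threshold, this states its place in the fit of all genes and is not evidence. Total RNA was sequenced from dorsal root ganglia (the sensory ganglia beside the spinal cord) of 2 groups of mice, both C57BL/6 and both 6 months old. The 4 mutants carried a Tmem184b gene trap on both alleles, and the 4 wild types did not. The labels name no treatment, sex, time of dissection, or cell type to which the trap is limited. Samples keep the number in their label, so that the wild types are 1, 3, 4 and 8 and the mutants 1, 2, 3 and 4.

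Corticosterone, the main glucocorticoid of rodents, crosses the cell membrane and binds receptors held in the cytoplasm by heat shock protein chaperones. The bound receptor moves to the nucleus, attaches to DNA at paired half-sites called glucocorticoid response elements, and changes the transcription of nearby genes. The hormone rises with handling stress and with the daily rhythm, and transcripts such as Fkbp5 and Tsc22d3 are widely used as a record of recent exposure. Sensory neurons and the satellite glia around them both carry the glucocorticoid receptor.

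Libraries held 6183622 to 7983826 reads, and 1 read was worth 0.125 to 0.162 CPM, the unit that scales the reads of a gene to the library total. The 9 genes had 61 to 1851 reads per library, so all 9 passed the filter on low values (log2 CPM above 0 in at least 4 of the 8 samples). The trapped gene was checked first. Tmem184b stood at 7.36 to 7.51 log2 CPM in the wild types, and the mutants were at 2.47 to 3.10, so all 8 libraries matched their genotype label. Neuron markers (Tubb3, Uchl1, Snap25, Rbfox3, Avil, Isl1, Prph and Nefl) were abundant, with sums of 9987 to 11144 CPM over the wild types against 10222 to 11316 CPM over the mutants. Across all 15030 genes tested, 423 were called higher and 397 lower, where a call is a limma adjusted p under 0.05. Centring each sample on its median moved that split to 204 higher and 706 lower, quantile normalization to 271 and 422, and voom with trimmed-mean scaling to 253 and 535.

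Neither receptor differed in mean level by more than the spread between samples. Nr3c1 lies on chromosome 18, and its level was 47.8, 47.5, 58.7 and 46.0 CPM in wild types 1, 3, 4 and 8 and 45.9, 51.7, 47.0 and 56.9 CPM in mutants 1 to 4. The groups overlapped throughout, with wild type 4 the highest of all 8 samples. The mean was 49.97 ± 5.85 CPM in the wild types against 50.4 ± 5.06 CPM in the mutants (SD, n = 4 each), a log2 difference of 0.013 (SE 0.092). Nr3c2, on chromosome 8, had 41.8, 39.0, 46.4 and 43.3 CPM in the wild types and 41.7, 42.2, 40.8 and 45.2 CPM in the mutants. Its groups also overlapped, and its log2 difference was -0.0026 (SE 0.075). Both differences changed sign under some settings, and over 20 alternatives they stayed between -0.079 and 0.092 for Nr3c1 and between -0.095 and 0.039 for Nr3c2. Of the exon bases of Nr3c2, 3.82% are shared with the antisense gene Gm10649, and whether counting used the strand is not given in the sources used here.

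Per kilobase of exon, counted over all annotated exons of a gene, the receptors were close to each other. Nr3c1 had 6.50 ± 0.762 CPM per kilobase in wild type and 6.56 ± 0.658 in the mutant, and Nr3c2 had 6.58 ± 0.478 and 6.56 ± 0.294 (SD, n = 4). The ratio of Nr3c1 to Nr3c2 on that scale was 0.988 ± 0.0752 for the wild types against 0.998 ± 0.0607 for the mutants (SD, n = 4). On that scale the receptors had about equal levels in both genotypes. The lengths of the transcripts expressed here were not measured, so the amounts of transcript may differ.

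The response genes differed from the receptors in that all 7 had a higher mean in the mutant. Groups did not overlap for Tsc22d3, Sgk1, Klf9, Ddit4 and Pdk4, and overlapped for Fkbp5 and Zbtb16. In the fit of all genes 6 of the 9 genes were past the threshold, all higher in the mutant. Of all tested genes 5.46% were past it, 2.81% higher and 2.64% lower. Mutants and wild types did not overlap for 5 of the 9, all higher, and for 12.4% of all tested genes, 7.5% higher and 4.92% lower. Because the genes were chosen with these values known, nothing is read from these counts. The median log2 difference of the 9 was 0.59, and that of all tested genes was 0.066. In bulk tissue, more transcript per cell and more cells of an expressing type cannot be told apart.

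**Figure D1:**
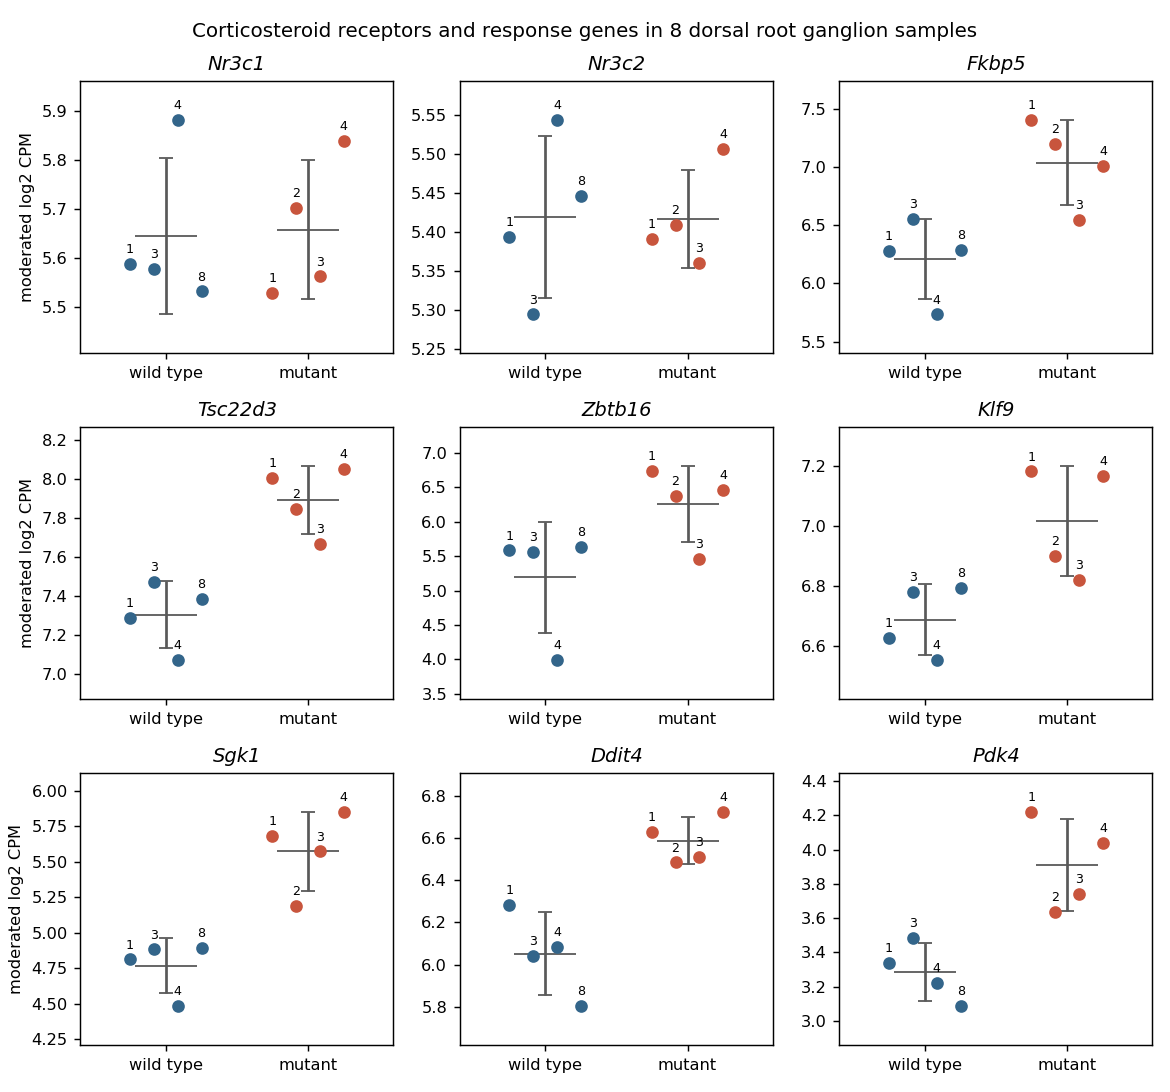
Moderated log2 CPM (vertical axis, a separate scale in each panel) of each receptor and response gene in 4 wild-type (blue) and 4 mutant (red) samples, with the sample number above each point; bars give the mean and SD. Nr3c1 and Nr3c2 overlap throughout, 5 of the 7 response genes show separate groups, and wild type 4 is lowest and mutant 3 lowest of their groups in Fkbp5, Tsc22d3, Zbtb16 and Klf9.

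Fkbp5 encodes a co-chaperone that binds the receptor complex and lowers its affinity for hormone, a feedback brake on glucocorticoid signalling. On chromosome 17, it had 77.2, 93.4, 52.9 and 77.8 CPM in wild types 1, 3, 4 and 8 and 169, 146, 93.2 and 128 CPM in mutants 1 to 4. Mutants 1, 2 and 4 exceeded every wild type, and mutant 3 was level with wild type 3. The mean was 75.3 ± 16.7 CPM in the wild types against 134 ± 32.1 CPM in the mutants (SD, n = 4), 1.78-fold higher, with a log2 difference of 0.83 (SE 0.169). Leaving out wild type 4 lowered that difference to 0.67, and leaving out mutant 3 raised it to 0.99.

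Tsc22d3 encodes GILZ, a leucine zipper protein that carries part of the anti-inflammatory action of glucocorticoids. This X-linked gene had 156, 177, 134 and 166 CPM in the wild types and 257, 230, 202 and 265 CPM in the mutants. Every mutant exceeded every wild type. The mean went from 158 ± 18.3 to 238 ± 28.2 CPM (SD, n = 4), 1.51-fold, and the log2 difference was 0.59 (SE 0.092).

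Sgk1 encodes a kinase that phosphorylates ion channel regulators and FOXO factors and responds to both receptors. It was the one gene of the 9 with a full response element in a promoter window. Windows of 250 bases before to 50 after each start site came from the RefSeq promoter table (GRCm38.p6), which held 14 windows for 7 of the 9 genes, all but Zbtb16 and Nr3c1. Both strands were searched for the palindromic element, which is AGAACA, any 3 bases, then TGTTCT, and for its core, which is GNACA, any 3 bases, then TGTNC (N is any base). Every full element also contains the core. The full element was found in 3 of 32851 windows (0.00913%) and the core in 156 (0.475%). The match in Sgk1 lay in 1 of its 6 windows, on chromosome 10, 189 bases before the start site of a short transcript, inside an intron of 5 longer Sgk1 transcripts in GENCODE M21. Its sequence is printed here for chr10:21993682-21993734 (GRCm38.p6, plus strand), because it is the 1 full element of the set, with the full element in capitals, beside the core match of Mt1, a gene of the wider list that was called higher, for chr8:94178975-94179027 (plus strand), where the capitals mark the core, 94 bases before the start site.
Sgk1: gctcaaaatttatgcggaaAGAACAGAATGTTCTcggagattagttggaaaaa
Mt1: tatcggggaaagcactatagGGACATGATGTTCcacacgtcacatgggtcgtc
No window of Fkbp5, Tsc22d3, Nr3c2, Pdk4, Klf9 or Ddit4 held either form, which says only that these letters are not in those windows. Of 45 windows of the wider list of response genes described further on, 5 held the core (11.1%): those of Map3k6, Trim63 and Mt1 and 2 overlapping windows of Fam107a that share 1 site.

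The level of Sgk1 was 27.8, 29.2, 22.1 and 29.4 CPM in wild types 1, 3, 4 and 8 and 51.1, 36.2, 47.3 and 57.3 CPM in mutants 1 to 4. The lowest mutant, 2, lay above the highest wild type, 8. The mean was 27.1 ± 3.44 CPM in the wild types against 48.0 ± 8.87 CPM in the mutants (SD, n = 4), 1.77-fold higher, with a log2 difference of 0.81 (SE 0.129). Among its paralogs, Sgk3 had a log2 difference of 0.28 (SE 0.146) and was not called (limma adjusted p = 0.249), and Sgk2 had at most 2 reads in any library.

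Zbtb16 encodes PLZF, a zinc finger repressor with a strong and direct response to glucocorticoids in many tissues. On chromosome 9, it had 47.6, 47.1, 15.6 and 49.3 CPM in the wild types and 107, 82.8, 43.9 and 87.8 CPM in the mutants. Wild type 4 was far below the other wild types, and mutant 3 fell below wild types 1, 3 and 8, so the groups overlapped. The mean was 39.9 ± 16.2 CPM in the wild types against 80.4 ± 26.5 CPM in the mutants (SD, n = 4), 2.01-fold higher. Its log2 difference of 1.07 was the largest of the 9 genes and also had the largest SE, 0.319. Without wild type 4 the difference was 0.67, and without mutant 3 it was 1.34 and past the threshold.

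Klf9 encodes a Krüppel-like transcription factor that responds to glucocorticoids and to thyroid hormone. This gene on chromosome 19 had 98.6, 110, 93.6 and 111 CPM in the wild types and 145, 119, 113 and 143 CPM in the mutants. The groups were separate by a narrow margin, since mutant 3 was next to wild type 8. The log2 difference of 0.33 (SE 0.086) was the smallest of the 7 response genes. It was no longer past the threshold without wild type 1, 3 or 4 or mutant 1 or 4, with differences of 0.27 to 0.39 over all 8 omissions, and at 0.24 under median centring.

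Ddit4 encodes REDD1, which restrains the growth kinase complex mTORC1, and responds to hypoxia and amino acid stress as well as to glucocorticoids. On chromosome 10, it had 77.5, 65.5, 67.6 and 55.6 CPM in the wild types and 98.6, 89.3, 91.0 and 106 CPM in the mutants. All mutants exceeded all wild types. The mean went from 66.5 ± 8.98 to 96.1 ± 7.48 CPM (SD, n = 4), 1.44-fold, a log2 difference of 0.54 (SE 0.090). Unlike in the genes above, wild type 8 was the lowest sample and wild type 4 lay between the others.

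Pdk4 encodes a kinase that switches off pyruvate dehydrogenase and so spares glucose, and it also responds to fasting through PPAR and FOXO factors. This gene on chromosome 6 had the fewest reads of the 9, with 9.84, 10.9, 9.04 and 8.21 CPM in the wild types (61 to 87 reads) and 18.4, 12.1, 13.1 and 16.2 CPM in the mutants (75 to 123 reads). Groups were separate, with mutant 2 nearest to the wild types. The mean was 9.50 ± 1.15 CPM in the wild types against 14.9 ± 2.86 CPM in the mutants (SD, n = 4), 1.57-fold higher, with a log2 difference of 0.63 (SE 0.147). It was no longer past the threshold without wild type 1 or 8 or mutant 1 or 4, with differences of 0.52 to 0.72 over the 8 omissions.

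Levels per kilobase again use all annotated exons, so the order of the genes depends on the annotation. In wild type that order ran from Ddit4 (37.9 ± 5.12 CPM per kilobase) and Tsc22d3 (36.5 ± 4.23), which did not differ beyond their spread, to Klf9 (21.4 ± 1.73). Fkbp5 (7.96 ± 1.77) and Zbtb16 (7.55 ± 3.07) came next and lay within their spread of each other and of both receptors. Sgk1 followed (5.53 ± 0.701) and Pdk4 was last (2.70 ± 0.327, SD, n = 4 each). In the mutant Sgk1 stood at 9.79 ± 1.81 CPM per kilobase, with a mean above those of both receptors instead of below them, and Zbtb16 (15.2 ± 5.01) and Fkbp5 (14.2 ± 3.39) were still within their spread of each other.

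The order of samples within a genotype is separate from the contrast by which the genes were chosen. Over the 7 response genes, wild type 4 was the lowest wild type in 5 (Fkbp5, Tsc22d3, Sgk1, Zbtb16 and Klf9), while its Nr3c1 level was the highest. Among mutants, 3 was the lowest in 4 of them (Fkbp5, Tsc22d3, Zbtb16 and Klf9) and 2 in the other 3, and the highest was always mutant 1 or mutant 4. The mean log2 CPM over the 7 genes was 5.74, 5.82, 5.30 and 5.70 in wild types 1, 3, 4 and 8 and 6.55, 6.23, 6.05 and 6.47 in mutants 1 to 4.

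**Figure D2:**
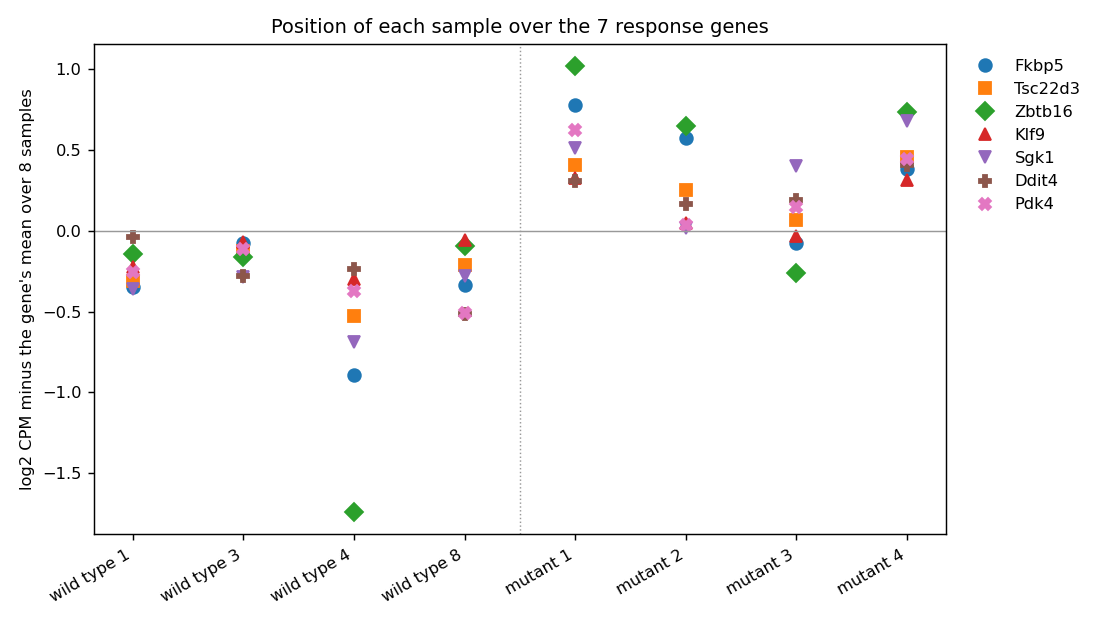
Log2 CPM of the 7 response genes in each sample after subtraction of the gene's mean over the 8 samples (vertical axis), with 1 symbol per gene and the genotypes separated by the dotted line. Zbtb16 spans the widest range, wild type 4 lies lowest for 5 genes, and in mutant 3 Fkbp5, Klf9 and Zbtb16 sit below 0.

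The order was also read in genes outside the 9. In the 36 tested genes of the wider list described next, mutant 3 was the lowest mutant in 27 (75%), against 28.2% of all tested genes. Mutant 1 was the highest mutant in 25 of the 36 (69.4%), against 19.5% of all tested genes. Wild type 4 stood at both ends: it was the lowest wild type in 14 of 36 (38.9%, against 20.8% of all tested genes) and the highest in 13 (36.1%, against 29.6%). These shares are a description of 8 samples.

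The wider list held 40 other genes known to respond to glucocorticoids, of which 36 were tested. In the mutant 9 rose and 1 fell at a limma adjusted p under 0.05, which is 27.8% of the 36, where 5.46% of all tested genes were called. Their median log2 difference was 0.35, against 0.066 for all tested genes, and 30 of the 36 had a positive difference, as did 64.4% of all tested genes. The list was drawn up with some results of these data known, Glul and Cd163 among them. The count fell to 5 without wild type 1 or without mutant 1, to 6 without mutant 2 or 4, and to 1 (Cdkn1c) when the variance was modelled without its trend with expression.

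Metallothioneins, small metal-binding proteins induced by glucocorticoids and by zinc, had the largest rises among the called genes of the list. Mt2 had 15.4, 26.7, 9.63 and 39.5 CPM in wild types 1, 3, 4 and 8 and 107, 48.0, 31.3 and 61.2 CPM in mutants 1 to 4. Mutant 3 lay below wild type 8, so these groups overlapped. The log2 rise of Mt2 was 1.48 (SE 0.374; limma adjusted p = 0.0336), but was not called without wild type 1 or 4 or mutant 1, 2 or 4, where the highest adjusted p was 0.105, and the difference ran from 1.14 to 1.80 over the 8 omissions. It also lost its call with voom, without the variance trend and with the robust trend (0.208). Mt1, whose promoter core match is shown above, had 38.7, 50.2, 29.2 and 66.9 CPM in the wild types and 125, 88.8, 63.4 and 92.0 CPM in the mutants. It rose by 1.02 (SE 0.216; limma adjusted p = 0.0142), and was not called without wild type 1 (0.0519) or mutant 1, without the variance trend, or with the robust trend (0.137, the highest over the alternatives). Its log2 differences were 0.82 to 1.22 over the omissions. Mt1 and Mt2 are close paralogs, so the split of reads between them is uncertain.

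Cdkn1c encodes p57, an inhibitor of cell division. It had 5.24, 6.01, 6.37 and 3.91 CPM in the wild types and 11.8, 10.03, 8.93 and 13.3 CPM in the mutants, with every mutant above every wild type. Its log2 rise of 1.0 (SE 0.177; limma adjusted p = 0.00512) was called in all 20 alternatives. Sult1a1, a sulfotransferase of phenols and catecholamines, had 12.5, 13.2, 9.19 and 12.4 CPM in the wild types and 23.0, 21.7, 16.0 and 26.2 CPM in the mutants. It rose by 0.85 (SE 0.152; limma adjusted p = 0.00531), with separate groups, and lost its call only without the variance trend (0.0665).

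The remaining 6 calls are named after their values were seen. Per1, a clock gene with a direct glucocorticoid response, rose by 0.46 (SE 0.089; limma adjusted p = 0.00865), with wild types at 47.9 to 53.7 CPM and mutants at 59.3 to 82.0 CPM. Glul (glutamine synthetase, abundant in satellite glia) rose by 0.49, Nfkbia (the inhibitor of NF-kappa-B) by 0.42, Mertk (a receptor for the uptake of dying cells) by 0.73 and Cd163 (the haemoglobin scavenger receptor of macrophages) by 0.80. Foxo3, a transcription factor that Sgk1 phosphorylates, differed by -0.27 (SE 0.062; limma adjusted p = 0.0205), and all mutants were below all wild types. Per1 and Glul kept their calls when any 1 sample was left out. Nfkbia and Mertk each lost theirs in 6 of the 8 omissions, up to adjusted p values of 0.107 and 0.134 without mutant 1. Cd163 lost its call without wild type 8 or mutant 1 or 4 (up to 0.0727), and Foxo3 without wild type 1 or 3 or mutant 2 (up to 0.0753).

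Several well-known response genes were not called. Fam107a (log2 difference 1.05, SE 0.310, limma adjusted p = 0.0644), Hif3a (0.90, SE 0.309) and Arrdc2 (0.40, SE 0.131) were among them. Dusp1, the phosphatase that limits MAP kinase signalling, differed by -0.056 (SE 0.128), Cdkn1a (p21) by -0.077 (SE 0.121), Tsc22d1 by 0.0025 (SE 0.049) and Angptl4 by 0.011 (SE 0.162). Tat, Il1r2, Trim63 and Pnmt had too few reads to be tested, at most 6 in any library.

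**Figure D3:**
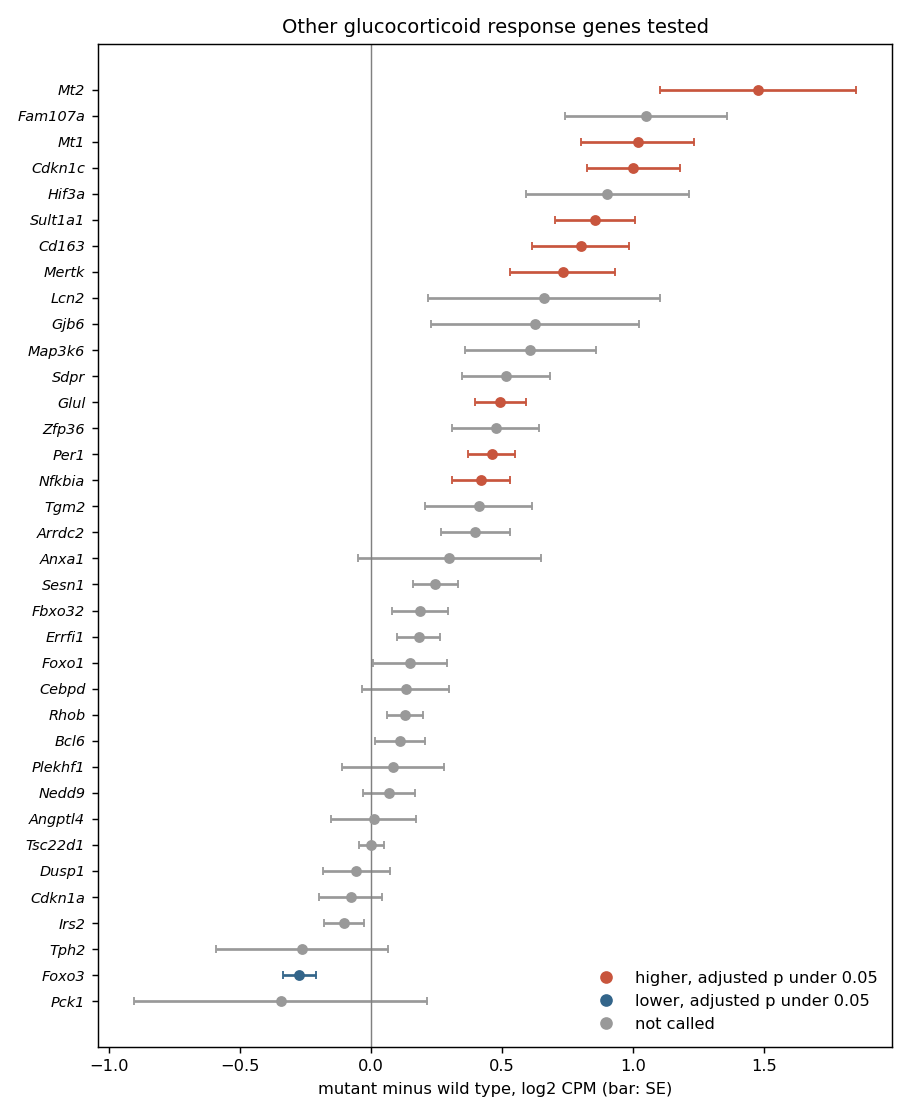
Log2 difference between mutant and wild type (horizontal axis; bar, SE) for the 36 tested genes of the wider glucocorticoid response list, sorted by size. The 9 genes called higher are in red, Foxo3, called lower, is in blue, and genes not called are in grey.

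The parts of the pathway around the receptor were listed next. Of all tested genes 5.46% were called, so few calls are expected in lists this short. A count of 0 or 1 in such a list, here and below, is a description only. Of 14 chaperones and co-chaperones that fold the receptor, 0 were called by limma (2 had an unadjusted p under 0.05, and voom called 1), with a median log2 difference of 0.00061. Fkbp4, the co-chaperone that competes with Fkbp5 for the receptor complex, differed by 0.030 (SE 0.057), from 297 CPM in wild type to 304 CPM in the mutant. Hsp90ab1 differed by -0.18 (SE 0.054; limma adjusted p = 0.0642). Of the 14, 7 were higher and 7 lower. The largest difference was that of Hspa8, at -1.09, which was not called and is described under the other observations. Of 14 coregulators, among them Ncoa1, Ncor1 and Ep300, 0 were called by limma (3 at an unadjusted p under 0.05, and voom called 1), with a median of -0.021.

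Genes that set the local supply of hormone were sparse. Hsd11b1, which regenerates corticosterone inside cells, had 3 to 8 reads per library, and Hsd11b2, which inactivates it, had 1 to 7, so neither was tested. H6pd, which supplies the cofactor of Hsd11b1, had a log2 difference of 0.32 (SE 0.107), and the corticosterone exporters Abcb1a and Abcb1b had 0.44 (SE 0.157) and 0.80 (SE 0.273). Of the 7 tested genes of this list, 0 were called by limma (3 at an unadjusted p under 0.05) and 0 by voom, with a median difference of 0.26 and all 7 positive (64.4% of all tested genes were). Serpina6, the blood carrier of the hormone, and Mc2r, the adrenal receptor for corticotropin, were at 0 reads in all 8 libraries.

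Targets of the mineralocorticoid receptor in kidney showed 1 call. Scnn1b and Scnn1g, subunits of the epithelial sodium channel, had at most 2 reads in any library. Nedd4l, the ubiquitin ligase that removes this channel and is a substrate of Sgk1, was that call, among 6 tested genes. Its log2 difference was -0.34 (SE 0.077; limma adjusted p = 0.0200), with wild types at 387 to 426 CPM and mutants at 270 to 362 CPM, and was not called without wild type 1 or 3 (up to 0.0696). Atp1b1 differed by 0.097 (SE 0.053).

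Machinery downstream of the response genes was compared next. Pdk1, Pdk2 and Pdk3, the paralogs of Pdk4, differed by -0.0060 (SE 0.080), 0.10 (SE 0.090) and 0.16 (SE 0.080). Of 8 genes of the pyruvate dehydrogenase complex and its phosphatases, 0 were called by limma (1 at an unadjusted p under 0.05) and 0 by voom, and their median was 0.077. For the mTORC1 genes on which Ddit4 acts, the count was 0 of 9 (2 at an unadjusted p under 0.05) and 0 by voom, with a median of -0.027. Among all 11 tested paralogs of the response genes, Zbtb7a alone was called, at -0.38 (SE 0.091; limma adjusted p = 0.0246), and not without wild type 1 or 4 or mutant 4 (up to 0.0877). Klf15, itself a textbook glucocorticoid target, was at 0.53 (SE 0.151; limma adjusted p = 0.0535) with separate groups.

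Other inputs to these genes were read from 4 lists. Of 9 tested hypoxia targets, which share an inducer with Ddit4, all 9 were positive with a median of 0.32 (64.4% of all tested genes were positive), and 1 was called: Ndrg1, a further Sgk1 substrate, rose by 0.38 (SE 0.087; limma adjusted p = 0.0221), and not without wild type 1, 3 or 8 or mutant 1 or 4 (up to 0.0739). Of 11 FOXO and PPAR targets, which share inducers with Pdk4, Cpt1a was called at 0.22 (SE 0.058; limma adjusted p = 0.0429), a call that 14 of 20 alternatives lost, among them every omission of 1 sample but that of mutant 2. In the thyroid hormone axis, which also drives Klf9, the receptor Thra was called at -0.24 (SE 0.053; limma adjusted p = 0.0188), and not without wild type 1 or 3 or mutant 1 (up to 0.0631). Hormone exposure, feeding state and time of day were not recorded in the labels, and their part in these differences was not tested.

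Of 16 clock genes, 7 were called, all higher in the mutant, where 2.81% of all tested genes were called higher, and the median over the list was 0.31. The clock list was chosen with earlier results of these data known, so this count is a description. The 7 include Per1, which is also counted in the wider response list. Per3 rose by 1.11 (SE 0.097; limma adjusted p = 1.70e-05), Dbp by 1.02 (SE 0.255; 0.0306), Per2 by 0.83 (SE 0.130; 0.00236) and Hlf by 0.67 (SE 0.135; 0.0107), and of these Dbp lost its call without wild type 1, 3 or 4 or mutant 1, 3 or 4 (up to 0.0966). Time of dissection, to which Per1 and these genes respond, cannot be told apart from genotype if it differed between the groups.

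**Figure D4:**
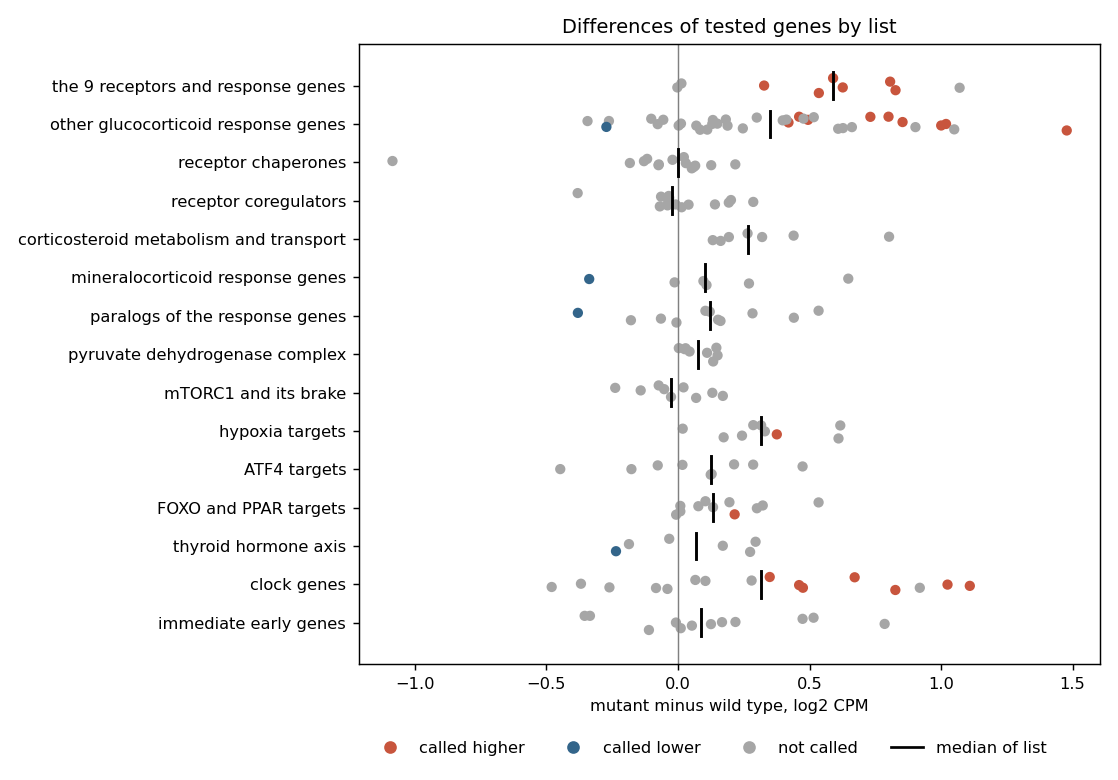
Log2 difference between mutant and wild type (horizontal axis) for every tested gene of the receptor and response genes and of 14 related lists; each point is a gene, its height within its list is arbitrary, and the black line is the median of the list. Medians run from -0.027 for mTORC1 to 0.59 for the receptors and response genes, and calls are in red (higher) and blue (lower). The receptors and response genes were chosen with their difference known.

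Genes with a profile like that of Fkbp5 were sought among 13142 genes with a mean of at least 1 log2 CPM, by the root mean square distance between profiles centred on their means over the 8 samples. The nearest 5 outside the 9 were Sult1a1 (0.176 log2 units), Wee1 (0.177), Usp2 (0.187), Slc1a5 (0.190) and Prodh (0.193). Wee1 is a kinase that holds back mitosis, Usp2 a deubiquitinase, Slc1a5 a glutamine transporter and Prodh the enzyme that begins proline breakdown. All 5 had wild type 4 or wild type 8 lowest among wild types and mutant 3 lowest among mutants; in Fkbp5 these are wild type 4 and mutant 3, so the choice by distance favours this order. Of the 9 genes themselves, Tsc22d3 was nearest to Fkbp5 at 0.229 and Pdk4 next at 0.289, while Nr3c1 and Nr3c2 were at 0.560 and 0.542. These distances include the difference between genotypes and describe 8 samples.

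Transcripts of other cells varied within both groups. Skeletal muscle markers, of tissue that lies next to the ganglia and in which Pdk4, Zbtb16 and Ddit4 are also made, summed to 4.45 to 39.6 CPM in wild type and 12.7 to 170 CPM in the mutant, with 0 of 7 tested called by limma (5 at an unadjusted p under 0.05) and 0 by voom. Without mutant 4, the sample with 170 CPM, 4 of the 9 genes were past the threshold in place of 6, Pdk4 and Klf9 being lost. The same 4 remained without mutant 1 or without wild type 1, whose muscle sums were the lowest of their groups (12.7 and 4.45 CPM). Over all tested genes 820 were called with all 8 samples. That count was 501 without mutant 4, 457 without mutant 1 and 404 without wild type 1. Each omission thus also removed calls in general, and the part of muscle transcript in these losses was not tested. Adipocyte markers summed to 1.39 to 4.0 CPM in wild type and 0.308 to 9.56 in the mutant, fibroblast markers to 611 to 1222 and 794 to 1177, endothelial markers to 63.8 to 95.9 and 67.6 to 104, and macrophage markers to 30.6 to 55.6 and 42.0 to 69.1. Wild type 4 had the highest fibroblast, endothelial and macrophage sums of the wild types. Satellite glia markers summed to 1502 to 1874 CPM in wild type and 1662 to 2339 in the mutant, and myelinating Schwann cell markers to 2432 to 3186 and 2874 to 3454. Called higher were Dcn (0.60), of 6 fibroblast markers, and Ncmap (0.69) and Drp2 (0.40), of 7 Schwann cell markers. Avil (-0.22), of 8 neuron markers, was called lower. Of all tested genes 5.46% were called and 64.4% were higher. The neuron markers split into 4 higher and 4 lower, with a median log2 difference of -0.0029. Of the Schwann cell markers 6 were higher and 1 lower (median 0.16), and all 6 fibroblast markers were higher (median 0.30). All 6 satellite glia markers were higher (median 0.23). Of the tested macrophage markers 4 were higher and 1 lower (median 0.41), and of the endothelial markers 4 were higher and 2 lower (median 0.11). Avil and Drp2 each lost their call in 4 of the 8 omissions of 1 sample. The part of cell composition in the response genes was not tested.

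Xist, the transcript of the inactive X chromosome, stood, in log2 CPM, at 8.0 in wild type 1, -0.89 in wild type 3, 8.0 in wild type 4 and 7.72 in wild type 8, and at 8.15, 8.25, -0.14 and 0.37 for mutants 1 to 4. In the 5 samples with high Xist, Fkbp5 was 52.9 to 77.8 CPM in 3 wild types and 146 and 169 CPM in 2 mutants. In the 3 samples with low Xist it was 93.4 CPM in wild type 3 and 93.2 and 128 CPM in mutants 3 and 4. Sgk1 in the samples with low Xist was 29.2 CPM in wild type 3 and 47.3 and 57.3 CPM in mutants 3 and 4. With Xist as a covariate, 5 of the 9 genes were past the threshold in place of 6, Klf9 being lost. Whether the difference depends on sex was not tested.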

How the data were processed

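Total RNA from 4 wild-type and 4 mutant mice was sequenced as single-end Illumina reads, per the labels' protocols. Salmon 0.11.1, DESeq2 and the build mm9 are named in the submitters' processing notes. The values are moderated log2 CPM in 1 table as deposited by the authors, in which a prior count had been added before the logarithm. Of the identifiers, 402 were listed more than once with equal values and were used once. All values above the floor of -1.79 log2 CPM came out as whole reads within 0.1 reads (100.0% of values up to 1000 reads), which gave back reads per gene and library totals. CPM in the text was computed from these reads and the log2 differences from the deposited values. Value columns were matched to samples by genotype and number. Running numbers in the column names, of unstated meaning, are consecutive in the mutants only, so a batch in them cannot be told apart from genotype.

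Mutant and wild type were compared with limma 3.58.1 in R 4.3.3 (lmFit, eBayes with trend = TRUE) by a two-sided test, with Benjamini-Hochberg adjustment over the 15030 genes with log2 CPM above 0 in at least 4 samples, and an adjusted p under 0.05 was a call. The p-values set the difference between genotypes against the variance within the groups of these 8 samples. That variance was drawn toward its trend with expression over all genes. The procedure was tested on simulated reads. The 9 genes and the lists were chosen with earlier results of these data known. The rule for naming covered the 9 genes, Tmem184b, Xist, up to 4 calls per list by size of difference, and the 5 genes nearest to Fkbp5. Other genes with values in the text, called or not, fall outside that rule and were picked with their values known. Exon lengths and chromosomes came from GENCODE M21 (GRCm38), matched by identifier. The length of a gene is that of all its annotated exons, with shared bases counted once. Promoter sequences came from RefSeq (GRCm38.p6). Neither build is that of the submitters, and strand use is not given in the sources used here. Python 3.11.15, numpy 2.4.6, pandas 2.3.3 and matplotlib 3.10.9 were used.

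Alternatives were no filter, a stricter filter (log2 CPM above 2), log2 of CPM plus 1, centring on sample medians, quantile normalization, no or a robust variance trend, sample weights, Xist as a covariate, voom on the recovered reads, an adjusted p under 0.1, omission of each sample, and the sample number as a replicate block.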

Additional observations from a re-analysis of the deposited data

Results flagged for a closer look

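In 128 groups of 4 values (the 9 genes, the other genes called in a list or nearest to Fkbp5, and the summed CPM of each list), 1 sample lay far from its 3 fellows in 6 groups, while chance flags about 1 group in 20, or 6.4 here. Wild type 4 was that sample in 4 of them. Its Zbtb16 level was 3.99 on the log2 CPM scale, with the other wild types at 5.57 to 5.63, and its Nr3c1 level was 5.88, against 5.53 to 5.59. Its Sult1a1 level was 3.24, against 3.66 to 3.75, and its Per3 level 4.22, against 4.54 to 4.60. Mutant 4 stood apart in the sum of the pyruvate dehydrogenase complex genes, at 711 CPM against 631 to 637 in the other mutants. Mutant 2 stood apart in the sum of the thyroid hormone axis genes, at 367 CPM against 339 to 343.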

How the results depend on the processing

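The 7 response genes kept a positive difference in all 20 alternatives, and the lowest was 0.24 (Klf9 with medians centred). Sgk1, Tsc22d3 and Ddit4 lost the threshold only without the variance trend. In that fit 0 of the 9 genes were past it and 1 of the wider response list was called. Of all tested genes, 67 were then called higher and 75 lower. Fkbp5 also lost it under the robust trend, Pdk4 under quantile normalization, and Klf9 under centring, Xist as a covariate and voom. The count of the 9 ranged from 4 to 7 and that of the wider list from 5 to 15 when each sample was left out. Higher and lower genes numbered 204 and 706 with sample medians centred, 67 and 75 when the variance trend was dropped, and 876 and 612 at an adjusted p under 0.1. There were 271 higher genes under quantile normalization and 253 under voom, and from 174 to 572 higher and from 230 to 427 lower when each sample was left out. The all-gene median difference was 0.066, and it was -0.026 after centring, 0.0030 after quantile normalization and 0.019 in voom. The cause of these changes was not tested. Numbers 1, 3 and 4 are shared by both genotypes, and the labels do not say whether they pair the samples. The deviations of samples with the same number correlated at 0.081, 0.041 and 0.058, which does not settle it. A replicate block on the number, in these 6 samples, gave 326 higher and 345 lower genes, with 6 of the 9 and 10 of the wider list called. Without the block the same samples gave 180 higher genes, 4 of the 9 and 6 of the wider list. Of 25 other list genes called, 4 kept their call throughout and none changed direction in the alternatives run.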

Other observations

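Hspa8, the constitutive heat shock protein that loads clients onto the receptor chaperone complex, spanned a wide range. It had 623, 658, 365 and 705 CPM in wild types 1, 3, 4 and 8 and 605, 382, 132 and 170 CPM in mutants 1 to 4, and its difference of -1.09 on the log2 scale (SE 0.358) was not called (limma adjusted p = 0.0922). Mutants 3 and 4, the lowest for Hspa8, are also the mutants with low Xist, while wild type 3, with low Xist as well, was at 658 CPM.

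Of 12 immediate early genes, 0 were called by limma (4 at an unadjusted p under 0.05) and 0 by voom, with a median log2 difference of 0.089. For 9 tested ATF4 targets, which share an inducer with Ddit4, limma and voom each called 0 (1 at an unadjusted p under 0.05), with a median of 0.12.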
